A study of Mus musculus with 8 samples.

Results

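The Rap, Ral and R-Ras proteins are small GTPases of the Ras family, and 9 of their genes were examined, namely Rap1a, Rap1b, Rap2a, Rap2b, Rap2c, Rala, Ralb, Rras and Rras2. Each gene was represented by the probe set that the platform annotation ties to its symbol alone, and by the brightest of these over all 8 arrays where there were several. That rule gave 8 of the 9 genes a value, out of 22180 genes in all. The probe set annotated to Rap1a also names a second gene, so no value is given for Rap1a. RNA came from sorted CD4 single-positive (CD4SP) thymocytes of C57BL/6 background, in 4 arrays of the genotype labelled Pggt1b_KO (KO) and 4 arrays of wild type (WT). The labels used here name no allele, Cre driver or age of the mice. They do not say whether each array stands for its own animal either, so the p-values reflect the spread among the arrays, which may be technical.

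Pggt1b encodes the catalytic subunit of the type I enzyme of protein geranylgeranylation, which joins a lipid from mevalonate metabolism to the C terminus of its substrate proteins. The series title places this reaction in the exit of thymocytes from the thymus. Ras-family GTPases cycle between a GTP-bound active and a GDP-bound inactive form, driven forward by exchange factors and back by GTPase-activating proteins (GAPs), and they need a C-terminal lipid to sit on membranes. Rap1, the Ral proteins and R-Ras are known to be geranylgeranylated, whereas Rap2a is known as a farnesylated protein. In T cells Rap1 is best known for activating integrins such as LFA-1, Ral for directing vesicles to the plasma membrane through the exocyst, and R-Ras for integrin function and adhesion. Arrays measure transcripts, so no value below speaks of the lipid on the protein or of its activity.

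The targeted gene was lower in KO, with a mean log2 intensity of 7.75 ± 0.15 in KO and 8.35 ± 0.040 in WT (SD, n = 4 each). T cell identity was visible in both genotypes, while the share of CD4SP cells among the T cells was not tested. The 5 measured T cell markers (Cd3e, Cd4, Cd5, Cd6 and Zbtb7b) averaged 11.21 to 11.30 log2 over the KO arrays and 11.26 to 11.31 over the WT arrays. Of the 5 measured markers of the preceding double-positive stage Cd8a fell, by 0.74 log2 (limma adjusted p = 0.0354), and Dntt, Cd8b1, Rag2 and Ptcra were not called, at -0.30, -0.13, -0.18 and -0.03 log2 (adjusted p from 0.107 to 0.853). The array means of the 5 ran from 7.62 to 7.97 in KO and from 7.99 to 8.31 in WT. Mean levels of B cell, myeloid, platelet, stromal and erythroid markers overlapped between the genotypes, and most of these markers lay below the intensity filter of 5.56 log2, including Pf4, Ms4a1, Csf1r, Kdr and Foxn1. Of all of these markers Pecam1, listed with the endothelial ones, was called, at 0.24 log2 higher in KO (limma adjusted p = 0.0286). Its mean was high, at 10.95 log2 in KO and 10.70 in WT. The endothelial Cdh5, at 6.45 and 6.36, was not called, and Kdr lay below the filter. The array means of the 4 heat-shock genes ran from 6.51 to 9.81 in KO and from 6.86 to 8.61 in WT, so that they varied widely inside each genotype. Hspa1a alone ran from 4.27 to 9.94 in KO and from 4.84 to 8.00 in WT. The part of the double-positive markers and of the heat-shock genes in the results below was not tested, beyond a fit in which the mean of Hspa1a and Hspa1b entered as a term.

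Across the family Ralb fell and Rras2 rose in KO, and the other 6 measured members did not pass the test. The test was limma on log2 values across 11585 genes, two-sided, with Benjamini-Hochberg adjustment over all of them and a threshold of 0.05. All 8 measured members passed the intensity filter. Calls were thus made for 2 of 8 members, or 25.0% (1 higher and 1 lower), against 13.0% of all tested genes, of which 4.45% were higher and 8.53% lower in KO. The median difference of the 8 members was -0.06 log2 and that of all tested genes -0.03 log2. With 8 genes these shares say nothing particular about the family.

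The 250 bases before the RefSeq start of Ralb and of Rras2 are printed because these are the members that changed. Promoter sequences were matched by symbol for all 8 measured members in RefSeq on the build GRCm38.p6. The Ralb stretch lies at chr1:119504783-119505032 on the minus strand and the Rras2 stretch at chr7:114117782-114118031, also on the minus strand. Each is written 5′ to 3′ along the gene, with matches to the motifs named next in capitals.
Ralb: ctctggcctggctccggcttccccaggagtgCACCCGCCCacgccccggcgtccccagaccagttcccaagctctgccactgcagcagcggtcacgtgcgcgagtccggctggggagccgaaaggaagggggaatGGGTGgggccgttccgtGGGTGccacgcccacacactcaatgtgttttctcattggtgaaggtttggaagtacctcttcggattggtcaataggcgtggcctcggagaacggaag
Rras2: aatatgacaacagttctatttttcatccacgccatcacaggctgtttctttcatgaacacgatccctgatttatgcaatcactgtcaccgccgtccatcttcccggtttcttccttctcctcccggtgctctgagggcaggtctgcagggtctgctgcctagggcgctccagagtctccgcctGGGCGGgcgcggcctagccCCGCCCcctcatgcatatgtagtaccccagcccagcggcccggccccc
The letters searched on both strands were CACCC (the core that Krüppel-like factors read), GGGCGG (the GC box), CCGGAAG (a core of ETS factors) and TGACGTCA (the cyclic AMP response element). CACCC occurred 3 times before Ralb and 0 times before Rras2, and 52.0% of 32851 RefSeq promoter windows of this length hold it. GGGCGG occurred 1 time before Ralb, where it overlaps a CACCC match, and 2 times before Rras2, and 32.7% of all windows hold it. CCGGAAG and TGACGTCA, held by 6.9% and 1.5% of all windows, were in neither stretch. These matches describe the letters and name no site in use.

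**Figure D1:**
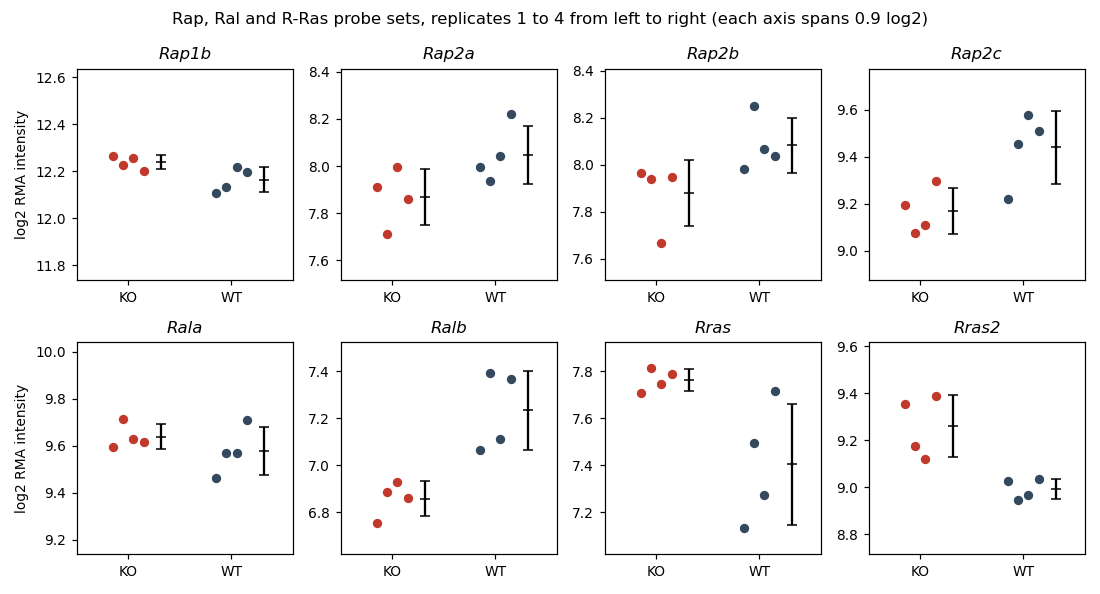
Log2 RMA intensity (vertical axis) of the 8 measured members in KO (red) and WT (dark) arrays, 4 points each, with the mean and SD as a bar to their right. All KO points lie below all WT points for Ralb and Rap2b and above them for Rras2, while the WT points of Rras spread from 7.13 to 7.72.

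Rap1b encodes a Rap1 protein, the switch that brings talin and RIAM to integrins. It stood at log2 intensities of 12.26, 12.23, 12.26 and 12.20 in KO, against 12.11, 12.13, 12.22 and 12.20 in WT. The groups overlapped, since WT replicate 3 lay inside the KO range. Its mean was 12.24 ± 0.029 in KO and 12.16 ± 0.052 in WT (SD, n = 4 each), a difference of 0.07 log2 with a 95% confidence interval from -0.03 to 0.18 (limma adjusted p = 0.329). The interval's upper end is a 1.13-fold higher level.

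The Rap2 genes encode the sister proteins of Rap1, which bind kinases of the TNIK and MAP4K4 group. None of the 3 passed the test, although the mean of each was lower in KO. Rap2a stood at 7.91, 7.71, 7.99 and 7.86 log2 in KO, against 7.99, 7.93, 8.04 and 8.22 in WT, and the groups overlapped. Rap2b stood at 7.96, 7.94, 7.67 and 7.95 in KO, against 7.98, 8.25, 8.07 and 8.04 in WT. No KO array of Rap2b reached the lowest WT array, but 3 of the 4 KO arrays lay within 0.05 log2 of it. Rap2c stood at 9.20, 9.07, 9.11 and 9.30 in KO, against 9.22, 9.45, 9.58 and 9.51 in WT, where replicate 1 was low and fell inside the KO range.

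The differences were -0.18 ± 0.079 log2 for Rap2a (SE, adjusted p = 0.165), -0.20 ± 0.082 for Rap2b (adjusted p = 0.135) and -0.27 ± 0.082 for Rap2c (adjusted p = 0.0595) in the limma fit. Their 95% intervals, which are not adjusted, ran from -0.35 to -0.0034, from -0.39 to -0.02 and from -0.46 to -0.09. The Rap2c adjusted p was under 0.05 in 5 of 19 other settings. It was 0.0148 without WT replicate 1, 0.0448 after median centring of the arrays and 0.0391 with array weights. It was 0.0327 with an intensity trend and robust prior, and 0.0368 with the number in the sample titles as a term. Elsewhere it ran from 0.0523 after a second quantile normalization to 0.334 without WT replicates 2 and 3, with 0.106 under no intensity filter.

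The Ral genes encode a pair of close relatives that act on the exocyst. Ralb fell in KO, and Rala did not pass the test. Its log2 intensities were 6.75, 6.89, 6.93 and 6.86 in KO, against 7.07, 7.39, 7.11 and 7.37 in WT, and the groups did not overlap. The mean was 6.86 ± 0.075 in KO and 7.23 ± 0.17 in WT (SD, n = 4 each), a difference of -0.38 ± 0.083 log2 (SE), which is 1.30-fold lower in KO (limma adjusted p = 0.0189). Rala stood at 9.59, 9.72, 9.63 and 9.61 in KO, against 9.46, 9.57, 9.57 and 9.71 in WT, with WT replicate 4 inside the KO range. Its difference was 0.06 log2, with a 95% interval from -0.08 to 0.19 (limma adjusted p = 0.562).

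The Ralb call ended without KO replicate 1 (adjusted p = 0.0560) and in the fit with the heat-shock term (adjusted p = 0.0546, difference -0.35 log2). A second Ralb probe set, at 5.19 ± 0.15 log2 in KO and 5.12 ± 0.076 in WT and below the filter, did not share the difference, and the mean of both probe sets stood at -0.15 log2 (adjusted p = 0.146).

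Of the R-Ras genes Rras2 rose in KO and Rras did not pass the test. Rras2, also known as TC21, is a relative of R-Ras that associates with the T cell and B cell receptors. It stood at 9.35, 9.17, 9.12 and 9.39 log2 in KO, against 9.03, 8.94, 8.97 and 9.03 in WT, with no overlap and with KO replicates 1 and 4 above the other two. The mean was 9.26 ± 0.13 in KO and 8.99 ± 0.044 in WT (SD, n = 4 each), a difference of 0.27 ± 0.068 log2 (SE), or 1.20-fold (limma adjusted p = 0.0320). Its call ended without KO replicate 1 (adjusted p = 0.0880), KO replicate 4 (0.0709), WT replicate 2 (0.0809) or WT replicate 3 (0.0758). It also ended with no intensity filter (0.0635), after median centring (0.0507), with the title number as a term (0.0518) and with the heat-shock term (0.0847).

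Rras, which encodes R-Ras itself, stood at 7.71, 7.81, 7.74 and 7.79 in KO, against 7.13, 7.50, 7.27 and 7.72 in WT. The KO arrays were close together, the WT arrays spread widely, and WT replicate 4 lay inside the KO range. Its mean was 7.76 ± 0.046 in KO and 7.40 ± 0.26 in WT (SD, n = 4 each), a difference of 0.36 ± 0.11 log2 (SE) with a 95% interval from 0.11 to 0.60 (limma adjusted p = 0.0608). Without WT replicate 4 the difference was 0.46 log2 and passed the test (adjusted p = 0.0118). It also passed with array weights (0.0393) and with an intensity trend and robust prior (0.0413). These were 3 of 19 other settings. Elsewhere the Rras adjusted p ran from 0.0557 with a filter of 6 log2 to 0.245 without WT replicates 2 and 3, with 0.100 under no filter.

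**Figure D2:**
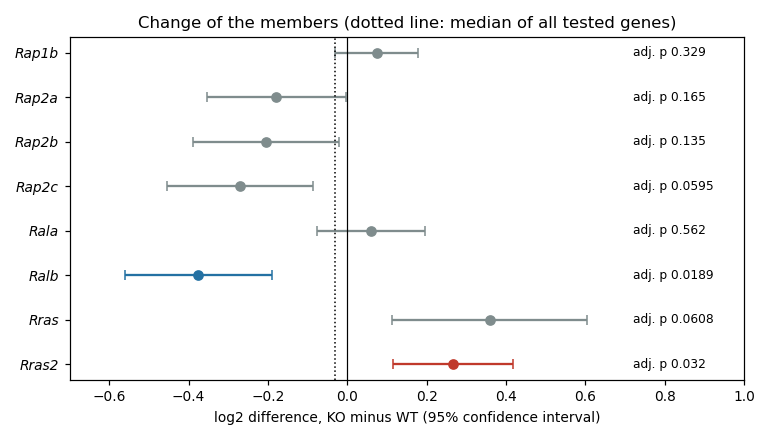
Log2 difference, KO minus WT, of each measured member (horizontal axis) with its 95% confidence interval and limma adjusted p; blue marks the member called lower, red the member called higher and grey those not called. The Rap2 genes and Ralb lie left of 0, Rap1b and Rala near it and both R-Ras genes right of it.

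No KO array overlapped a WT array for 3 of the 8 members (Rap2b, Ralb and Rras2), against 20.3% of all tested genes. By size of the difference without regard to sign, Ralb exceeded 94.6% of all tested genes, Rras 93.9%, Rap2c 88.5% and Rras2 88.2%. Rap1b exceeded 40.4% and Rala 33.7%. In bulk RNA a smaller share of cells that express a gene and less RNA per cell cannot be told apart. Among the members named above as geranylgeranylated, Ralb was called, at -0.38 log2, and Rap1b, Rala and Rras were not, at 0.07, 0.06 and 0.36 log2. The C-terminal sequences of the members were not examined, so Rap2b, Rap2c and Rras2 were not placed by lipid.

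Whether close relatives differed in their change was tested within each array, as the log2 difference between the 2 probe sets. The level of such a difference has no meaning across probe sets, and only its shift between genotypes was read. Rala minus Ralb was 2.84, 2.83, 2.70 and 2.75 in KO, against 2.40, 2.18, 2.46 and 2.34 in WT, with no overlap. The shift was 0.44 ± 0.068 log2 (SE), and its two-sided exact permutation p was 0.0286, the smallest that 4 against 4 allows. Adjusted over the 5 pairs tested it was 0.143, and no single pair could pass at this size. With all probe sets of each gene averaged the shift was 0.21 ± 0.062 log2 (SE), less than the 0.44 of the brightest probe sets, and after a second quantile normalization it was 0.49 ± 0.062 log2. The exact permutation p was 0.0286 under both.

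For the R-Ras genes the shift of Rras minus Rras2 was 0.09 ± 0.15 log2 (exact permutation p = 0.514, adjusted p = 0.643), and the groups overlapped. Among the Rap2 genes the shifts were 0.02 ± 0.16 log2 for Rap2a minus Rap2b (adjusted p = 0.886; -0.09 log2 with all probe sets averaged), 0.09 ± 0.10 for Rap2a minus Rap2c and 0.07 ± 0.10 for Rap2b minus Rap2c (adjusted p = 0.643 for each, exact permutation test). These errors leave room for shifts of a size like the changes of single members. Rap1a against Rap1b could not be set side by side without a Rap1a value.

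**Figure D3:**
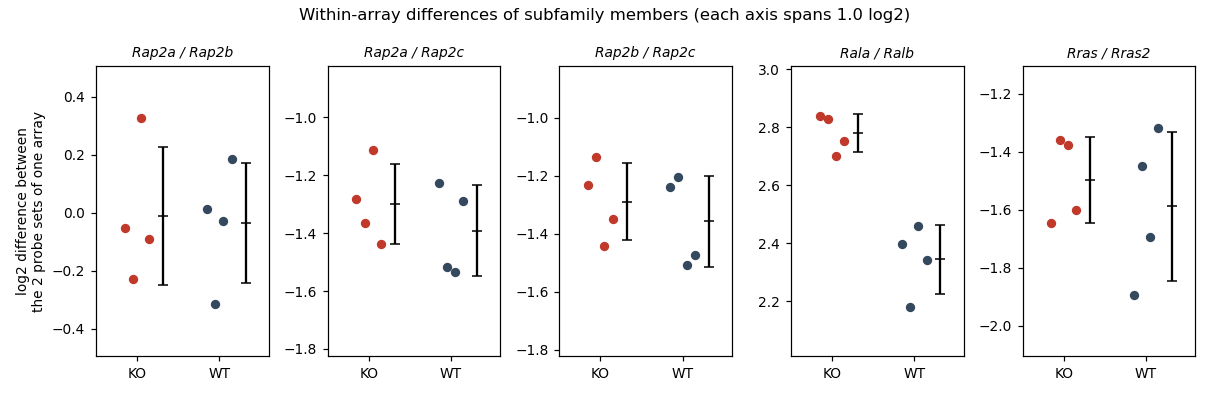
Within-array log2 difference between the probe sets of 2 relatives (vertical axis) in KO (red) and WT (dark) arrays, with the mean and SD as a bar. For Rala against Ralb the KO points, 2.70 to 2.84, lie above the WT points, 2.18 to 2.46, and for the other 4 pairs the groups overlap.

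Further probe sets with a single symbol existed for Rap1b and Rap2b as well. That of Rap1b averaged 6.37 ± 0.15 log2 in KO and 6.41 ± 0.022 in WT, a difference of -0.05. That of Rap2b averaged 5.71 ± 0.15 in KO and 5.68 ± 0.15 in WT, a difference of 0.03. As with Ralb, the dimmer probe set of each gene had a difference of the opposite sign and smaller than the spread of its KO arrays.

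The genes with profiles most like those of the called members were found among 10641 named genes, by the root mean square difference of mean-centred log2 values over the 8 arrays. For Ralb they were the pseudokinase gene Stk40, at 0.059 log2, the signalling adaptor gene Samsn1, at 0.060, and Gla, which encodes the lysosomal alpha-galactosidase, at 0.064. For Rras2 they were Ube4a, of a ubiquitin ligase, at 0.041, the inositol phosphatase gene Inpp4a, at 0.044, and the chromatin remodeller gene Chd2, at 0.049. Their differences were -0.34, -0.38 and -0.39 log2 for the first group and 0.29, 0.29 and 0.24 log2 for the second, a sign and size that the choice by likeness fixes.

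The proteins that load, unload and read these GTPases were examined in 10 lists, whose 102 genes gave 74 tested ones. Of these, 7 rose and 10 fell in KO, 23.0% together against the 13.0% of all tested genes, with a median of -0.01 log2. The lists were chosen with earlier results of these data known, and the integrin and C-terminal enzyme genes among them include genes already known to change, so the share is not independent evidence. With 3 to 12 tested genes in each, the share called in a single list says nothing particular about that list.

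Among exchange factors of Rap, Rasgrp2 rose and the other 4 tested ones were not called. Rasgrp2 encodes CalDAG-GEFI, a calcium-driven activator of Rap1 best known from platelets. Its log2 intensities were 10.64, 10.57, 10.55 and 10.71 in KO, against 10.20, 10.27, 10.14 and 10.32 in WT, with no overlap. The difference was 0.39 ± 0.059 log2 (SE), 1.31-fold (limma adjusted p = 0.00410, up to 0.0157 with any single array left out). Of the 5 measured platelet markers Itga2b alone passed the intensity filter. It stood at 6.39, 6.24, 6.29 and 6.33 in KO, against 6.21, 6.00, 6.06 and 6.24 in WT, a difference of 0.18 log2 that did not pass the test (limma adjusted p = 0.0957), with every KO array above every WT array. Pf4, Ppbp, Gp9 and Gp6 were below the filter, and the mean of the 5 measured platelet markers ran from 5.11 to 5.18 in KO and from 4.98 to 5.20 in WT. The part of these markers in the Rasgrp2 result was not tested. Rapgef6, Rapgef2 and Rapgef3 differed by 0.09, 0.08 and 0.07 log2 (adjusted p from 0.388 to 0.621). The median of the list was 0.08 log2.

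Among the 6 tested GAPs of Rap, Rap1gap2 fell and 0 rose. It stood at 6.41, 6.53, 6.67 and 6.56 in KO, against 6.87, 7.06, 6.90 and 6.85 in WT, with no overlap. The difference was -0.38 ± 0.069 log2 (SE), 1.30-fold lower in KO (limma adjusted p = 0.00923, up to 0.0268 with any single array left out). Rasa3, a GAP for both Rap1 and R-Ras, differed by 0.12 log2 (adjusted p = 0.0879), Sipa1, the Rap1 GAP of lymphocytes, by -0.07 (adjusted p = 0.476), and Sipa1l3 by 0.10 (adjusted p = 0.563). The median of the list was -0.02 log2.

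Of 12 tested Rap effectors and genes of the integrin-activation module 2 were higher and 1 lower. That was 25% against 13.0% of all tested genes, and the list median was -0.0023 log2. Apbb1ip, which encodes the Rap1 effector RIAM, stood at 10.92, 10.92, 10.96 and 11.08 in KO, against 10.78, 10.74, 10.63 and 10.78 in WT, a rise of 0.24 ± 0.057 log2 (SE, limma adjusted p = 0.0275). Fyb (now Fyb1), the adaptor ADAP that links SKAP1 and RIAM to the T cell receptor, rose by 0.22 ± 0.052 log2 (adjusted p = 0.0242). Fermt3, which encodes the integrin activator kindlin-3, fell by 0.20 ± 0.047 log2 (adjusted p = 0.0232), with KO arrays from 10.54 to 10.65 and WT arrays from 10.76 to 10.84.

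Each of these 3 calls ended when certain single arrays were left out. For Apbb1ip these were KO replicates 1, 3 and 4 and WT replicates 2 and 3 (highest adjusted p 0.0681). For Fyb they were KO replicates 1 and 3 and WT replicate 3 (highest 0.0657), and for Fermt3 KO replicates 1, 2 and 3 and WT replicates 2 and 4 (highest 0.0689). Map4k4, a kinase bound by Rap2, differed by -0.10 log2 (adjusted p = 0.237).

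On the Ral side, the exchange factor gene Ralgds fell and the exocyst subunit gene Exoc8 rose. Ralgds, whose product couples active Ras to Ral, stood at 7.35, 7.29, 7.22 and 7.34 in KO, against 7.70, 7.62, 7.56 and 7.65 in WT. The groups were apart in every array, by a difference of -0.33 ± 0.051 log2 (SE), 1.26-fold lower in KO (limma adjusted p = 0.00415), and the call held in all 20 alternatives. The other 4 tested exchange factors of Ral were not called, with Rgl1, Rgl2 and Rgl3 at -0.08, 0.08 and -0.01 log2 and a list median of -0.01 log2.

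Of the 3 subunits of the Ral GAP complexes 0 were called, with differences of 0.17 log2 for Ralgapa2, 0.07 for Ralgapb and -0.03 for Ralgapa1 (adjusted p from 0.296 to 0.820), and 0.07 as their median. Exoc8, which encodes the exocyst subunit Exo84 that active Ral binds, stood at 7.94, 7.79, 7.62 and 7.65 in KO, against 7.44, 7.40, 7.49 and 7.48 in WT. It rose by 0.30 ± 0.072 log2 (SE, limma adjusted p = 0.0260), and leaving out KO replicate 1, KO replicate 2, WT replicate 2 or WT replicate 3 ended its call (highest adjusted p 0.0691). The call also ended with no intensity filter (limma adjusted p = 0.0503). Exoc8 was the single call among the 10 tested genes of its list, which were exocyst subunits and Reps1, and the list median was -0.02 log2. Exoc3 differed by -0.18 (adjusted p = 0.0907), and Exoc6b and Exoc5 by 0.12 and -0.05.

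Of 8 tested exchange factors and GAPs of Ras and R-Ras 2 fell and 0 rose, with a median of -0.0068 log2. Rasgrp4, an exchange factor known from mast cells, stood at 8.49, 8.02, 8.33 and 8.39 in KO, against 8.83, 9.31, 9.23 and 9.10 in WT. It fell by 0.81 ± 0.12 log2 (SE), 1.75-fold lower in KO (limma adjusted p = 0.00368). With all Rasgrp4 probe sets averaged the difference was -0.51 log2 (limma adjusted p = 0.00786). Nf1, the neurofibromin gene, whose product is a GAP of Ras and R-Ras, fell by 0.34 ± 0.087 log2 (adjusted p = 0.0323), with KO arrays from 8.25 to 8.67 and WT arrays from 8.70 to 8.88. Leaving out any single array other than KO replicate 1 and WT replicate 3 ended the Nf1 call (highest adjusted p 0.0833). With no intensity filter the Nf1 call ended too (limma adjusted p = 0.0578). Sos2 differed by 0.17 log2 (adjusted p = 0.0604) and Rasgrp1, a main Ras exchange factor of thymocytes, by 0.14 (adjusted p = 0.115).

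**Figure D4:**
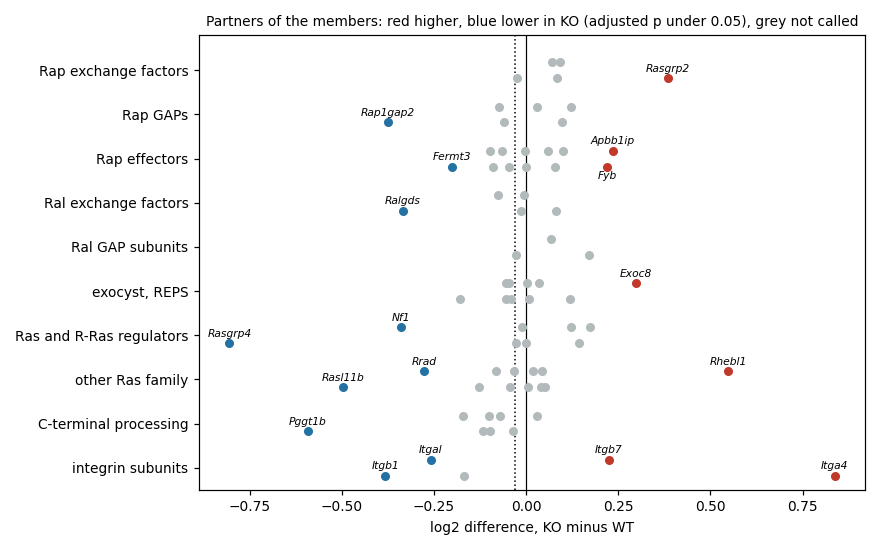
Log2 difference, KO minus WT (horizontal axis), of each tested gene of the 10 partner lists (rows); red points were called higher and blue points lower in KO, grey points were not called, and the dotted line is the median of all tested genes. Most points lie within 0.2 log2 of 0, with Rasgrp4 at -0.81 and Itga4 at 0.84 the farthest on either side.

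Other GTPases of the Ras family gave 12 tested genes, of which 1 rose and 2 fell, with a median of -0.01 log2. Rhebl1, a relative of the mTORC1 activator Rheb, stood at 6.52, 6.48, 6.36 and 6.08 in KO, against 5.85, 5.89, 5.75 and 5.76 in WT, a rise of 0.55 ± 0.093 log2 (SE, limma adjusted p = 0.00614). Its WT level lay close to the filter of 5.56, where background compresses differences, so this size is not firm. Rasl11b fell by 0.50 ± 0.098 log2 (adjusted p = 0.0118). Rrad, which encodes a GTPase that restrains calcium channels, fell by 0.28 ± 0.078 (adjusted p = 0.0445), a call that needed every array but WT replicate 1 (highest adjusted p 0.109 with another left out). The Rrad call also ended with no intensity filter (limma adjusted p = 0.0835). Rasl10a differed by -0.13 log2 (adjusted p = 0.211).

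Of 8 enzymes and chaperones that act on the C terminus of these GTPases Pggt1b fell, by 0.59 ± 0.072 log2 (SE, limma adjusted p = 0.00141), and the other 7 were not called. The methyltransferase gene Icmt, the CAAX protease gene Rce1 and the farnesyltransferase subunit gene Fntb differed by -0.17, -0.12 and -0.10 log2 (adjusted p from 0.246 to 0.268), and the list median was -0.10 log2. Of the 5 genes of integrin subunits, whose proteins Rap1 regulates in T cells, 2 rose and 2 fell, with a median of -0.17 log2. Itga4 stood 0.84 log2 and Itgb7 0.22 log2 higher in KO, and Itgb1 and Itgal 0.38 and 0.26 log2 lower (limma adjusted p from 0.000877 to 0.0250), while Itgb2, the partner of Itgal in LFA-1, was at -0.17 log2 (adjusted p = 0.0579). Itgal was not called when KO replicate 1 or WT replicate 2 was left out (highest adjusted p 0.0541), and Itgb7 was not called without KO replicate 2, KO replicate 4, WT replicate 2 or WT replicate 3 (highest 0.0691).

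**Figure D5:**
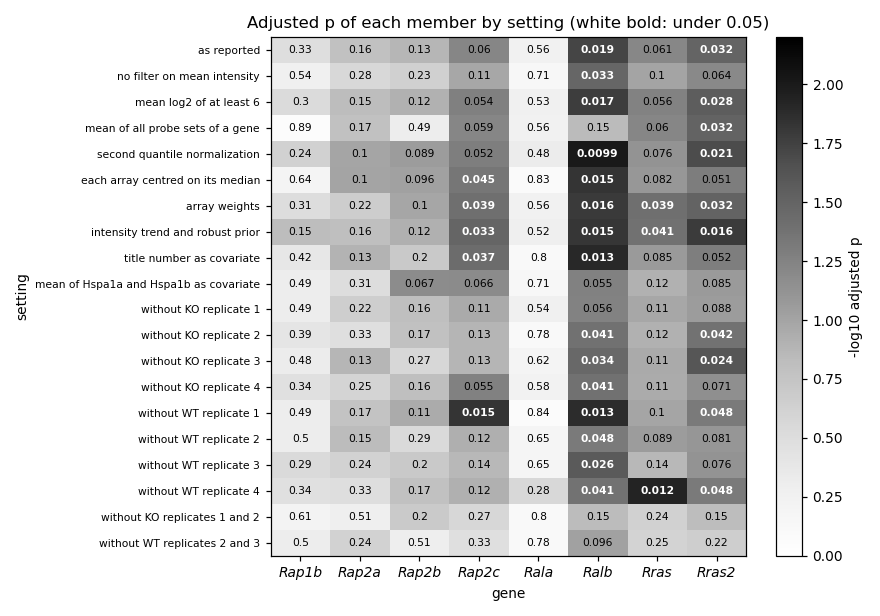
Benjamini-Hochberg adjusted p of each measured member (columns) as reported and under 19 other settings (rows), with darker cells for smaller values and white bold type below 0.05. Ralb is below 0.05 in 14 of these 19 settings, Rras2 in 9, Rap2c in 5 and Rras in 3. Rap1b, Rap2a, Rap2b and Rala are above it in every row.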

How the data were processed

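The authors deposited log2 intensities per gene-level probe set of Mouse Gene 2.0 ST arrays, for which the submitters' processing notes name RMA and version 1.1 of Affymetrix Expression Console. RMA corrects background, normalizes quantiles over the arrays and summarizes probes. No source used here names the genome build. The table held 41345 probe sets, and the array medians lay between 5.52 and 5.59. No detection values were used, and 4 arrays per genotype limit the precision. RNA was amplified from small amounts, per the labels' protocols, and background signal compresses differences of dim probe sets.

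Probe sets with exactly 1 gene symbol in the platform annotation (23521, for 22180 genes) were used, with the brightest per gene over all 8 arrays. A gene was tested where that mean reached 5.56 log2, the median of all probe set means, which left 11585 genes. The comparison used limma (version 3.58.1, under R 4.3.3) with genotype as the single term. The fit was tested on simulated data with independent normal noise. It called 85 of 100 genes changed by 0.5 log2 and 99 of 100 changed by 1 log2. Among the unchanged rest of the 11585 genes it made 8 false calls. Changes as small as those of Ralb and Rras2 were not simulated. Pairs of members were compared by exact permutation over 70 assignments. Named are all members, every called partner gene, further partner genes by smallest p up to 4 per list, and the 3 most alike genes of each called member. The members and lists were chosen with earlier results of these data known. Alternatives changed the filter, probe set choice, scaling, fit, covariates, threshold and arrays used.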

Additional observations from a re-analysis of the deposited data

Results flagged for a closer look

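In 3 of 126 groups of 4 arrays examined, 1 array stood far from the other 3, and chance alone flags about 1 group in 20. Rap2b stood at 7.67 log2 in KO replicate 3, while the other KO arrays lay between 7.94 and 7.96, and without that array its difference was -0.13 log2 in place of -0.20. Sos2 stood at 8.77 in KO replicate 4, with the other KO arrays between 8.89 and 8.90. Rasl10a stood at 5.93 in KO replicate 1, with the others between 6.12 and 6.15.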

How the results depend on the processing

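The sign of the difference was the same for each of the 8 measured members in all 20 alternatives, which share arrays with each other. Those that changed only the intensity filter, the prior or the threshold leave the difference itself as it was, so the sign could not change there. Of all tested genes 1503 were called (515 higher and 988 lower), against 920 with no intensity filter, 874 with the heat-shock covariate, 446 at an adjusted p under 0.01, 258 without KO replicates 1 and 2, 295 without WT replicates 2 and 3, and 813 to 1441 with any single array left out. After median centring of the arrays the split was 383 higher and 1321 lower. Of the members 2 were called as reported, 1 with no intensity filter or with all probe sets of a gene averaged, 4 with array weights or with an intensity trend and robust prior, 0 with the heat-shock covariate, at an adjusted p under 0.01 or without either pair of arrays, and 0 to 3 with any single array left out. Of the partner genes 17 were called as reported, 10 with no filter, 8 at an adjusted p under 0.01, 5 without KO replicates 1 and 2, 4 without WT replicates 2 and 3, and 10 to 17 with any single array left out. Apart from the higher thresholds, larger test sets and fewer samples that these settings bring by construction, the cause was not tested. Of the pairs 0 passed under either alternative, where again no single pair could pass at this size. As reported, 1 (Rala minus Ralb) had an unadjusted exact permutation p of 0.0286. No paired analysis was possible because the labels give no replicate numbers that the genotypes share.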
